A study of Mus musculus with 18 samples.

Results

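After 48 h, the RNA of 3T3-F442A adipocytes given growth hormone (GH) was compared with that of control adipocytes of the same time. The comparison used 6 of the 18 arrays of the series, namely the 3 titled GH and the 3 titled control at 48 h, and it covers the 12422 of 12488 probe sets on the array that are not the manufacturer's controls. 3T3-F442A cells are mouse preadipocytes kept as a line, which store fat once differentiated in culture, so all groups are 1 cell line and none holds the vessels, nerves or immune cells of fat tissue. The other 12 arrays hold control and GH cells at 30 min and at 4 h, and they served to estimate the spread and to compare the 48 h response with the earlier ones. The labels used here give no GH dose, medium or mode of dosing, and name each sample only as control or GH, its time, and experiment 1, 2 or 3. Each experiment has 1 array of every group, and the GH and control arrays of an experiment were treated as a pair. Nothing else in the labels says that the experiments were separate cultures, so p-values here rest on the spread among these samples alone.

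GH acts on fat cells through the GH receptor, a cytokine receptor without enzyme activity of its own. The bound receptor activates the kinase JAK2, which activates the transcription factors STAT5A and STAT5B. STAT5 then raises genes that include the SOCS family, whose products damp the same receptor, and in liver the genes of circulating IGF-I and its partner proteins. In adipose tissue GH is known for promoting the breakdown of stored fat and lowering the making of new fat, and 3T3-F442A cells are known for needing GH to become adipocytes.

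Before the results, 1 limit of the labels and 1 of the samples apply. The control 48 h sample of experiment 3 is described in a second label field as a 4 h control, and its title was followed. Experiment 3 also stood apart from the other pairs in markers of preadipocytes and fibroblasts. The summed signal of 11 such markers was 39450, 33480 and 54575 in the controls of experiments 1, 2 and 3, and 21435, 16992 and 61104 with GH. It was therefore lower with GH in experiments 1 and 2 and higher in experiment 3. Results that rest on experiment 3 or on that control array are given with and without them.

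The label of the cells was checked against markers of cell types. All 11 measured adipocyte markers, such as Adipoq and Fabp4, lay above the background, which was set at 105.6 signal units, the highest signal of the array's yeast and Bacillus probe sets. Their summed signal was 97998, 98365 and 103993 in the controls and 117458, 98468 and 91008 with GH in experiments 1, 2 and 3, so the groups overlapped. Of 7 endothelial markers, among them Pecam1, Cdh5 and Kdr, 0 were above background. Of 8 macrophage and leukocyte markers, 4 were above background, while Adgre1, Itgam, Ptprc and Mrc1 were below it. Of these 4, Cd14 was higher with GH (0.80 on the log2 scale defined below), while Cd68, Csf1r and Lyz2 were at -0.20, -0.14 and -0.77, and none of the 8 passed the test below (Cd14 did with a pseudocount of 100, adjusted p = 0.0473). Of 5 muscle markers, 4 were above background. Of the 11 preadipocyte and fibroblast markers, 9 were above it, and Cd34 and Vim were below. Of all 8251 genes, taken by their brightest probe set, 2587 had means below it in both groups. A count above background alone therefore does not show that a cell type was present. In RNA from whole cultures, fewer cells of a type and less RNA per cell cannot be told apart.

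Signals are in array units on a linear scale, 1 per probe set and array, and a change is the difference in log2(signal + 25) between GH and control, so that 1 is a doubling for bright transcripts and the change of dim ones is understated. Changes are given ± their standard error from limma, with a Benjamini-Hochberg adjusted p over the 12422 probe sets and a threshold of 0.05. With the experiment as a block, 158 probe sets passed (1.27%), of which 86 rose (0.692%) and 72 fell (0.58%). They had the same sign in 3 of 3 experiments in all 158 cases. The fit without the block called 42 (0.338%), 31 higher and 11 lower, and all of these were among the 158. Where a gene named below passed with the block alone, its adjusted p without the block is given beside it. On 131 of the 158 the GH and control arrays did not overlap, 77 with GH above and 54 with GH below, against 10.2% of all probe sets (5.23% above and 4.92% below). The 158 were chosen by a test on these same arrays, which favours a constant sign and separated groups. Both counts therefore describe the calls and are no further support for them.

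The calls depend on which pairs are fitted and on the arrays of the other times. The 48 h arrays alone gave 1 call with the block and 0 without it. With the arrays of all times, the number without experiment 3 was 145, of which 84 were among the 158. Without the control array of experiment 3 it was 147, with 98 among them. Without experiment 1 it fell to 1, Igf1 (adjusted p = 0.00453), and without experiment 2 to 4, namely Igf1 (0.00667), Cd1d1 (0.0332), Cish (0.0407) and Psmb9 (0.0407). Every other gene that passed and is named by the rule given in the methods lost its call without experiment 1, and without experiment 2, with an adjusted p of 0.052 to 0.586 and of 0.09 to 0.486. None of the 76 changed its direction under the 13 other settings (0 reversed), of which the signal minimum of 100 left 72 genes to test.

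Among the probe sets called, the median change was similar in the 3 pairs for those that rose and smaller in experiment 3 for those that fell. They were called for changes that held across these same pairs, so some likeness is built in. The median change of the 86 probe sets that rose was 1.15, 1.10 and 1.03 in experiments 1, 2 and 3. That of the 72 that fell was -1.23, -1.12 and -0.80. Among those that rose, 52 changed by more than 1 on the log2 scale, and among those that fell, 39 did. Over all 12422 probe sets the log2 changes of experiments 1 and 2 correlated at 0.155, those of 1 and 3 at 0.175 and those of 2 and 3 at 0.051. These are descriptions across probe sets, which are not independent, and each change shares its array with all others.

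**Figure D1:**
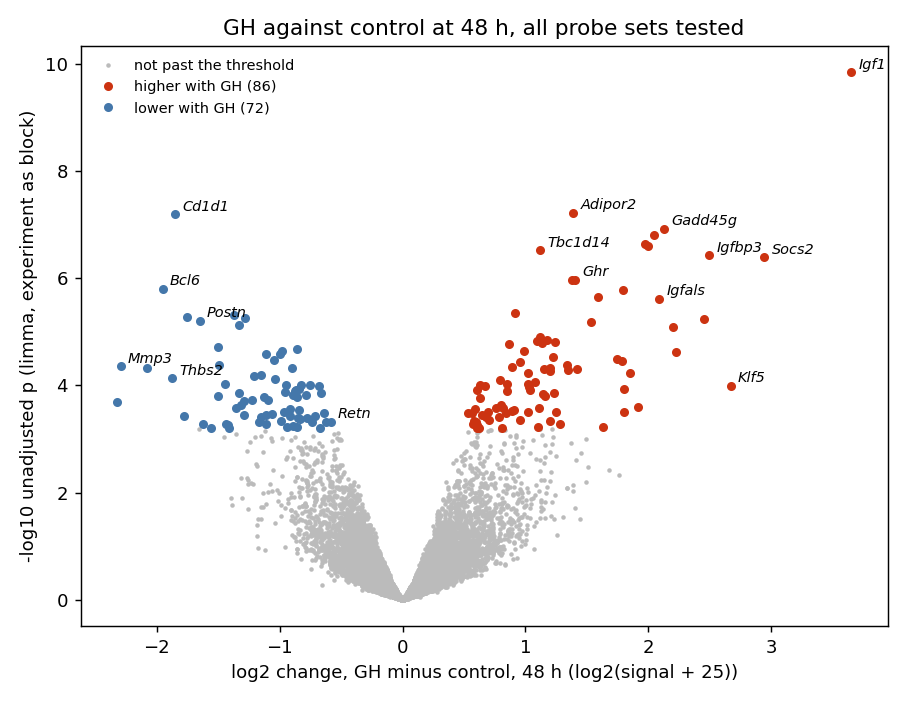
Change in log2(signal + 25) between GH and control at 48 h (x axis) against the −log10 of the unadjusted limma p (y axis) for all 12422 probe sets. Red points are the 86 past the threshold and higher with GH, blue points the 72 past it and lower, and grey points did not pass. Igf1 lies farthest out at 3.65, and Cd1d1 has the lowest p among the genes that fell.

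The 142 called probe sets that carry 1 gene symbol stand for 133 genes, 72 higher and 61 lower, and 16 are unnamed. Of 39 called genes with more than 1 probe set, 4 had every probe set called and 31 had every one of the same sign. Genes of the GH receptor pathway and the IGF axis, some antigen processing genes, growth arrest genes and the adipokine gene Agt were among those that rose. Genes for extracellular matrix, chemokines, sterol synthesis and the repressor Bcl6 were among those that fell. Most adipocyte markers did not pass.

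The GH receptor gene itself rose, and Ghr is taken first because all later steps run through it. Its probe set had 3493, 4167 and 2084 signal units in the controls of experiments 1, 2 and 3 and 10513, 9376 and 5787 with GH. Every GH array was above every control array, and both groups were lowest in experiment 3. The change was 1.40 ± 0.17 (adjusted p = 0.00112, 0.135 without the block), on a probe set of the _s_at type, which can read related transcripts. The other Ghr probe set changed by 1.16 ± 0.20 (adjusted p = 0.012).

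The kinase and the STAT5 factors below the receptor did not pass. Jak2 had 545, 437 and 347 units in the controls and 277, 357 and 225 with GH, so that the groups overlapped slightly, with a change of -0.59 ± 0.18 (adjusted p = 0.209). Stat5a changed by -0.24 ± 0.11 (adjusted p = 0.475) and Stat5b by -0.35 ± 0.25 (adjusted p = 0.693). Among the 25 measured components of the receptor and JAK-STAT pathway, 2 rose and 1 fell, with a median change of 0.00 beside 0.015 over all 8251 genes. Over all genes, taking the brightest probe set of each, 0.812% rose and 0.703% fell. Of these 8251 genes, 4328 lay above 0 (52.5%) and 3923 below 0. These are the shares to set beside the counts of every list. Besides Ghr, Ptpn1 rose (0.79 ± 0.14, adjusted p = 0.016, 0.649 without the block). It encodes PTP1B, a phosphatase that acts on JAK2 and the insulin receptor. Osmr, the oncostatin M receptor chain, fell by 1.21 ± 0.21 (adjusted p = 0.014, 0.331 without the block), with lower signals in experiment 3 in both groups. Without experiment 3, Ptpn1 had a change of 0.82 and an adjusted p of 0.0795.

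The feedback inhibitors downstream of STAT5 differed among themselves. Socs2 had 53.5, 75.2 and 171 units in the controls and 716, 819 and 1101 with GH. The lowest GH array was above the highest control array, and 2 of the controls lay under the background limit. The change of Socs2 was 2.95 ± 0.32 (adjusted p = 0.000508). Cish, which encodes the inhibitor CIS, had 220, 173 and 189 units in the controls and 997, 831 and 807 with GH (2.04 ± 0.20, adjusted p = 0.000387). Its 3 pairs gave nearly the same change, 2.06, 2.11 and 1.96. Socs3, by contrast, had 136, 196 and 63.5 units in the controls and 67.9, 206 and 144 with GH. The groups overlapped and the change was 0.07 ± 0.42 (adjusted p = 0.982). Without experiment 3 its sign turned (-0.37).

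Of the 15 measured SOCS family members and STAT5 targets, 3 rose and 1 fell, with a median of 0.14. The list counts Igf1 by its brighter probe set, which did not pass. Bcl6, a transcriptional repressor whose gene is a known STAT5 target, was the one that fell. It had 1319, 1249 and 1148 units in the controls and 340, 424 and 186 with GH. The controls lay close together, all GH arrays were below them, and experiment 3 had the lowest GH value. The change was -1.95 ± 0.24 (adjusted p = 0.00145, 0.0815 without the block).

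The STAT5 dimer is known to bind the letters TTCNNNGAA, where N is any base, so the start regions of genes that changed were read for them. The promoter table of RefSeq, build GRCm38.p6, gives 250 bases before to 50 after each start site, and the whole window was searched, while the 250 bases before the start are printed. The motif reads the same on both strands. It was present for 6 of 58 genes that rose (10.3%), 4 of 42 that fell (9.52%) and 559 of all 6576 measured genes with a promoter (8.5%), so the shares were close to that of all genes. The 6 were Agt, Cish, Gm2a, Ifi35, Igfals and Psmb8, and the 4 were Bcl6, Igsf10, Mgst2 and Prss23, Gm2a, Igsf10, Mgst2 and Prss23 being named only for this match. Bcl6 is shown because 1 of its start regions holds 3 copies, beginning at -168, -122 and -88 from the start site, in capitals. The region is chr16:23981284-23981533 on the minus strand.
Bcl6: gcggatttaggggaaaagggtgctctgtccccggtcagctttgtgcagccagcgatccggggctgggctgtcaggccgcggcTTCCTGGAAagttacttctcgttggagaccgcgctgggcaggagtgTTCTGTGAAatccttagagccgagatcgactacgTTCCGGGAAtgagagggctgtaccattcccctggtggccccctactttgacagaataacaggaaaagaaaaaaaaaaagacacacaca

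The motif is a description of letters, and binding was not measured. Another spacing, TTCNNNNGAA, was present for 3.45% of the genes that rose, 4.76% of those that fell and 6.68% of all measured genes. The letters GAAANNGAAA, found in interferon response elements and searched on both strands, were present for 5.17%, 4.76% and 3.89%. Windows that held more than 1 of these motifs were counted for each.

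The IGF axis held the largest rise. On 1 Igf1 probe set the controls had 6.1, 22.7 and 42 units, all under the background limit, and the GH arrays had 410, 500 and 835. No array overlapped, and the change was 3.65 ± 0.21 (adjusted p = 1.78e-06), with 3.81, 3.46 and 3.68 in the 3 experiments. With a pseudocount of 100 the change of Igf1 was 2.42. The other Igf1 probe set, which was brighter over all arrays, changed by 0.23 ± 0.17 (adjusted p = 0.709), so the probe sets of Igf1 disagreed. Igf1 encodes the growth factor IGF-I.

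Genes of the binding partners of IGF-I rose too. Igfbp3, the main circulating IGF binding protein, had 28.6, 35.9 and 20.8 units in the controls and 383, 304 and 174 with GH, which put all controls under background and all GH arrays above it (2.49 ± 0.27, adjusted p = 0.000508, and 1.55 with a pseudocount of 100). Its other, dimmer probe set gave 1.49 ± 0.46 (adjusted p = 0.201). Igfals encodes the acid labile subunit that joins IGF and IGFBP3 in a ternary complex. It had 567, 548 and 1100.3 units in the controls and 2261, 3025 and 4187 with GH. The groups did not overlap, and experiment 3 was highest in both (2.09 ± 0.26, adjusted p = 0.00186, 0.262 without the block). A second Igfals probe set lay near background and did not pass (0.15 ± 0.33).

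Igfals had the STAT motif in 2 of its 3 annotated start regions. They are shown for comparison with Bcl6, since one gene rose and the other fell. In the first, chr17:24877594-24877843 on the plus strand, the motif begins at -236 from the start site. In the second, chr17:24877981-24878230 on the plus strand, it begins at -58.
Igfals, first: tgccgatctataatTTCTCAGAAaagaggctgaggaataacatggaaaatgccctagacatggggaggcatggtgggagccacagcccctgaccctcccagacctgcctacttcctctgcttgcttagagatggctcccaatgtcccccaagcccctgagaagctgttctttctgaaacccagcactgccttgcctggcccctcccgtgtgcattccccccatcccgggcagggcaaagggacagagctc
Igfals, second: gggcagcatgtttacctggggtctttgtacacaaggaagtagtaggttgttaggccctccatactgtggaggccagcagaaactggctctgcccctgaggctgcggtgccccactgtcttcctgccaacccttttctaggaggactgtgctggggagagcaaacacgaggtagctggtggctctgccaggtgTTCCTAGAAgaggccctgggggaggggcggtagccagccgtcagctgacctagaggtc

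Igf2, which encodes a second IGF ligand, rose by less. It had 2170, 2164 and 3338 units in the controls and 4383, 3343 and 6950 with GH, with the lowest GH array just above the highest control (0.89 ± 0.18, adjusted p = 0.0345, 0.285 without the block). Igf2 did not pass without experiment 3 (0.81, adjusted p = 0.14) or without its control array (0.95, adjusted p = 0.0562). In the list of 13 measured IGF ligands, receptors and binding proteins, 3 rose, 0 fell, 10 lay above 0 and the median was 0.23. Over all genes 0.812% rose and 52.5% lay above 0. Unadjusted, 4 of the 13 had a p under 0.05, beside 11.3% of all genes. Igfbp7 missed the threshold (1.12 ± 0.25, adjusted p = 0.0508), although its arrays did not overlap. It passed with a pseudocount of 100 (adjusted p = 0.0255) or a mean signal of at least 100 (0.0204).

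**Figure D2:**
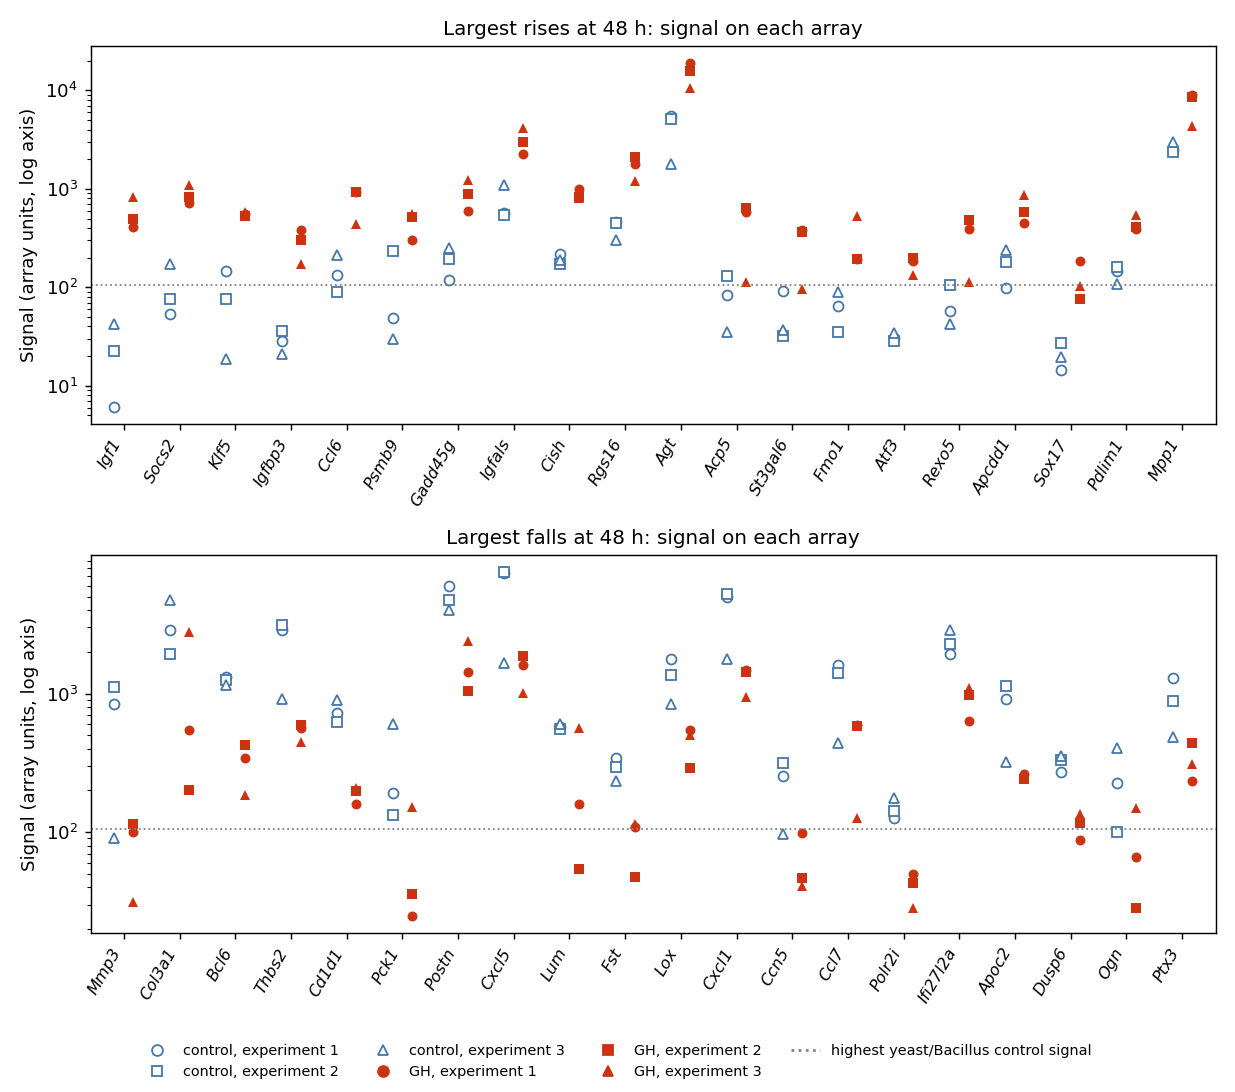
Signal on each 48 h array (log axis, array units) for the 20 genes with the largest rises (top) and falls (bottom) among those past the threshold. Open blue symbols are controls and filled red symbols GH, circles, squares and triangles mark experiments 1, 2 and 3, and the dotted line is the background limit of 105.6. The GH arrays of Agt are between 10665 and 18942, and Mmp3 in experiment 3 starts from a control under the line.

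Other large rises belonged to regulators of transcription and signalling. Klf5, a transcription factor that promotes adipocyte differentiation, had 148, 75.8 and 18.6 units in the controls and 558, 525 and 587 with GH. The GH arrays lay above all controls, and the controls of experiments 2 and 3 were under the background limit, while the change passed (2.67 ± 0.49, adjusted p = 0.0177). Without the control array of experiment 3 the change of Klf5 was 1.97 (adjusted p = 0.035). Rgs16, a regulator of G protein signalling, rose by 1.99 ± 0.21 on 1 probe set (adjusted p = 0.000435) and 1.79 ± 0.22 on the other (adjusted p = 0.00145).

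Among 31 measured adipogenic and antiadipogenic transcription factors, 2 rose, 2 fell and the median was 0.025. Besides Klf5, Xbp1 rose. It is a factor of the unfolded protein response that also takes part in adipogenesis, and it changed by 1.56, 1.10 and 0.63 in the 3 experiments (1.10 ± 0.16, adjusted p = 0.00651). Klf4 fell by 1.05 ± 0.17 (adjusted p = 0.0101). Ebf2 fell by 0.64 ± 0.13 (adjusted p = 0.0351, 0.287 without the block), with near-equal changes in each pair, but not without experiment 3 (adjusted p = 0.174) or its control array (0.0654). Pparg and Cebpa, the central adipocyte factors, were nearly level between the groups, at 0.03 ± 0.14 and 0.03 ± 0.21 (adjusted p = 0.97 and 0.982). In 1 or more of the fits without an experiment, the sign of each of these differed.

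The adipocyte markers moved in both directions or not at all. Adipoq, which encodes adiponectin, had 30212, 30107 and 34855 units in the controls and 34827, 25550 and 38211 with GH. The groups overlapped and the change was 0.03 ± 0.17 (adjusted p = 0.975). Adipor2, which encodes an adiponectin receptor, had 2283, 2201 and 2446 units in the controls and 6148, 5904 and 6214 with GH. Both groups were tight and far apart, with 1.42, 1.41 and 1.34 in the 3 pairs (1.39 ± 0.13, adjusted p = 0.000265).

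Agt encodes angiotensinogen, which fat cells secrete. It had 5546, 5129 and 1789 units in the controls and 18942, 15572 and 10665 with GH. No array overlapped, and experiment 3 was lowest in both groups (1.97 ± 0.20, adjusted p = 0.000435). The Agt start region, chr8:124569707-124569956 on the minus strand, is shown with its 1 STAT motif, which begins at -172.
Agt: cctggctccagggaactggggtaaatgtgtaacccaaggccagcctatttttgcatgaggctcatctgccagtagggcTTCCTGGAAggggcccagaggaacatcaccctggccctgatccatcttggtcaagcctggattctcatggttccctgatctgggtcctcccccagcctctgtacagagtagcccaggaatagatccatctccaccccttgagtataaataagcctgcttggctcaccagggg

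Of the 23 measured adipocyte markers and adipokines, 2 rose (Adipor2 and Agt), 2 fell and the median was -0.05, at 0.00, -0.06 and -0.49 in the 3 experiments. Retn, which encodes resistin, had 13564, 13619 and 9968 units in the controls and 10315, 8537 and 6180 with GH. It fell in each pair, while the groups overlapped through the low control of experiment 3 (-0.58 ± 0.13, adjusted p = 0.0434, 0.845 without the block). Pck1, which encodes a key enzyme of glyceroneogenesis in fat cells, had 191, 132 and 607 units in the controls and 24.8, 35.6 and 152 with GH. It fell in each pair and overlapped only through experiment 3, the highest in both groups (-1.77 ± 0.38, adjusted p = 0.0379, 0.234 without the block). Without the control array of experiment 3 neither passed (adjusted p = 0.141 for Retn and 0.134 for Pck1), and Retn did not pass without the whole experiment (0.196).

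The other adipocyte genes of that list did not pass. Fabp4, a fatty acid carrier, changed by -0.30 ± 0.18 (adjusted p = 0.626). Lpl, the secreted lipase, had 22262, 22313 and 24458 units in the controls and 22324, 17028 and 15032 with GH (-0.36 ± 0.15, adjusted p = 0.411). Slc2a4, the insulin-responsive glucose transporter GLUT4, was higher with GH in experiments 1 and 2 and lower in experiment 3, by 0.29, 0.62 and -0.91 (adjusted p = 0.997). Lep, which encodes leptin, had -0.26, 0.04 and 1.49 (0.43 ± 0.28, adjusted p = 0.67).

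**Figure D3:**
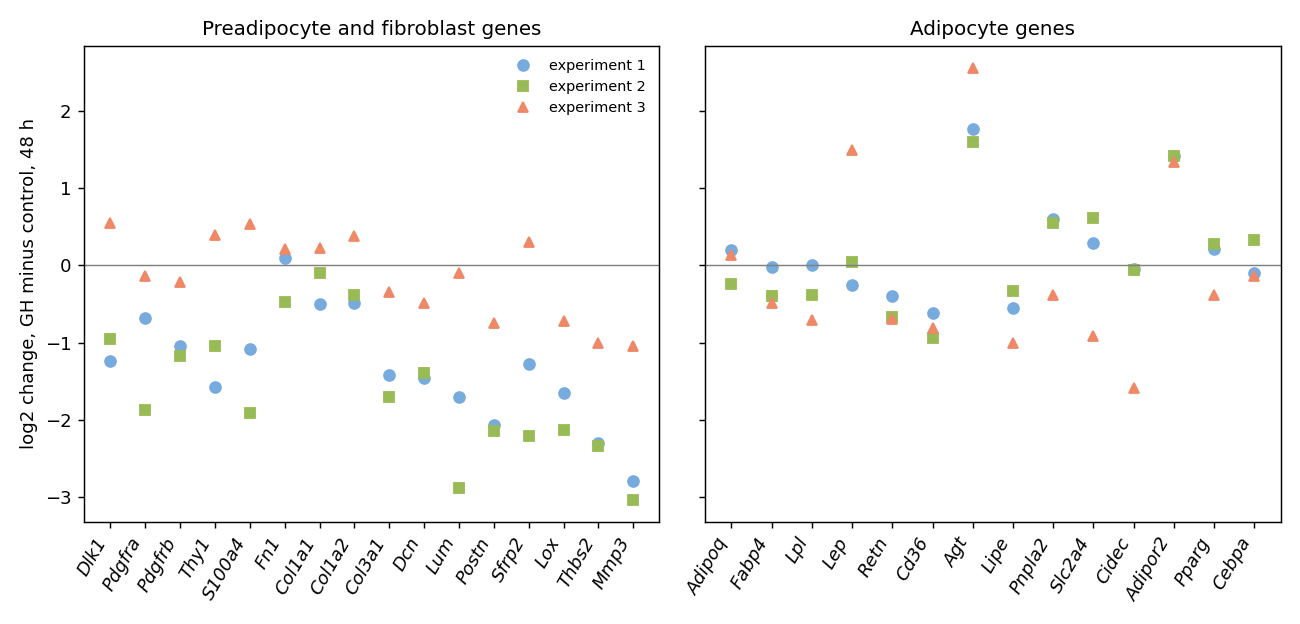
Change in log2(signal + 25) between GH and control at 48 h (y axis) in each experiment. Chosen preadipocyte, fibroblast and matrix genes are on the left and chosen adipocyte genes on the right. The markers Cd34 and Vim, under background, and the collagen genes that rose, Col6a3 and Plod3, are not shown. Blue circles, green squares and orange triangles are experiments 1, 2 and 3. On the left the triangle is the highest point for every gene shown, while on the right Agt and Adipor2 are above 0 in all 3 experiments.

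Genes of fat synthesis and breakdown gave no common direction that passed. Of 18 measured genes of fatty acid synthesis, desaturation and elongation, 2 rose, 1 fell and the median was -0.09. Fads1, a desaturase of polyunsaturated fatty acids, had 1459, 1327 and 1856 units in the controls and 3473, 4049 and 2455 with GH, without overlap (1.08 ± 0.19, adjusted p = 0.0171). Elovl5, which elongates the same kind of fatty acid, had 1451, 1449 and 1511 units in the controls and 2201, 2233 and 2220 with GH (0.59 ± 0.13, adjusted p = 0.0421, 0.206 without the block). The groups were tight, yet Elovl5 did not pass without experiment 3 (0.60, adjusted p = 0.12).

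Scd2, a desaturase that makes monounsaturated fatty acids, had 17338, 18674 and 20961 units in the controls and 10012, 8912 and 12216 with GH. The GH arrays were all lower (-0.88 ± 0.16, adjusted p = 0.0197), while a second probe set did not pass (-0.31 ± 0.17) and Scd2 did not pass without the control array of experiment 3 (-0.77, adjusted p = 0.0688). Fasn, the fatty acid synthase gene, had 5205, 4139 and 8189 units in the controls and 2118, 2095 and 2967 with GH. Its groups did not overlap, but it missed the threshold (-1.24 ± 0.30, adjusted p = 0.0698). With a pseudocount of 100 its adjusted p was 0.0441, and with probe sets of a mean signal of at least 100 it was 0.0301. Pgd, an enzyme that supplies NADPH, had -0.52 ± 0.12 (adjusted p = 0.0563, and 0.0137 with a pseudocount of 100).

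Among 28 measured genes of triglyceride synthesis, storage and lipolysis, 1 rose, 2 fell, 18 lay below 0 and the median was -0.24. Over all 8251 genes 0.812% rose, 0.703% fell and 3923 lay below 0. Abhd5, also called CGI-58, activates the lipase ATGL. It had 1737, 2119 and 1674 units in the controls and 3406, 3651 and 2067 with GH, and overlapped through the low GH array of experiment 3 (0.68 ± 0.14, adjusted p = 0.0381, 0.714 without the block). Ces1d, a carboxylesterase that hydrolyses triglyceride, fell by 0.96 ± 0.18 on an _f_at probe set that related esterases may share (adjusted p = 0.02, 0.549 without the block). Ces1d did not pass without the control array of experiment 3 (-0.91, adjusted p = 0.0626). Pck1, given above, is in this list too.

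Lipe, which encodes hormone-sensitive lipase, had 6947, 7184 and 6887 units in the controls and 4721, 5687 and 3423 with GH. All GH arrays were lower, with -0.63 ± 0.16 (adjusted p = 0.0919). Cd36, a fatty acid uptake protein, had -0.79 ± 0.20 (adjusted p = 0.0812), also without overlap. With a pseudocount of 100, Lipe (adjusted p = 0.0393) and Cd36 (0.0448) passed.

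Of 18 measured genes of sterol synthesis and uptake, 3 fell, 0 rose and 14 lay below 0, with a median of -0.32 (-0.44, -0.54 and -0.36 in the 3 experiments). Over all 8251 genes 0.703% fell and 3923 lay below 0. Hmgcs1, the enzyme before HMG-CoA reductase, had 2057, 1894 and 3455 units in the controls and 790, 900 and 1735 with GH. The groups did not overlap, and experiment 3 was highest in both (-1.13 ± 0.22, adjusted p = 0.0223, 0.781 without the block). Idi1, an isomerase of isoprenoid building blocks, fell by 1.29 ± 0.25 (adjusted p = 0.025, 0.761 without the block), and Fdps, farnesyl diphosphate synthase, by 0.86 ± 0.19 (adjusted p = 0.0487, 0.845 without the block). Their groups overlapped through the high signals of experiment 3, and none of the 3 genes passed without experiment 3 (adjusted p = 0.0549 for Hmgcs1, 0.066 for Idi1 and 0.129 for Fdps). Without its control array 2 of them did, Fdps then having 0.0934.

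In the fit with the block, the lists of fatty acid oxidation, glycolysis and respiratory chain genes held no gene that passed by limma. Of 29 measured genes of fatty acid oxidation, 0 passed and 6 had an unadjusted p under 0.05, beside 11.3% of all genes, with a median of -0.04. Cat, catalase, had -0.65 ± 0.17 (adjusted p = 0.102) and Etfb, an electron carrier subunit, -0.53 ± 0.16 (0.158). Cat passed with a pseudocount of 100 (adjusted p = 0.0492) or a mean signal of at least 100 (0.0427). Of 24 glycolysis and lactate genes, 0 passed and 5 did so unadjusted, again beside 11.3% of all genes. Of the 24, 19 lay below 0, beside 3923 of all 8251 genes, with a median of -0.16. Ldhb had the lowest p of these (-0.42 ± 0.14, adjusted p = 0.22). Of 42 genes of the respiratory chain and citric acid cycle, 0 passed, 1 did so unadjusted and the median was 0.06. In the list of 22 insulin signalling genes, Pik3r1 alone rose. It encodes the regulatory p85 alpha subunit of PI3-kinase and had 256, 334 and 246 units in the controls and 555, 772 and 615 with GH (1.14 ± 0.22, adjusted p = 0.0211, 0.172 without the block), with an adjusted p of 0.0506 without the control array of experiment 3. The median of that list was 0.015.

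Extracellular matrix genes were among the largest falls. Postn encodes periostin, a matrix protein of fibroblasts. It had 6011, 4719 and 3999 units in the controls and 1420, 1046 and 2383 with GH, without overlap (-1.65 ± 0.23, adjusted p = 0.00349). The 3 pairs changed by -2.06, -2.15 and -0.74. Mmp3, stromelysin, had 842, 1122 and 91.1 units in the controls and 100.5, 115 and 31.1 with GH. The control of experiment 3 was already under the background limit and lay below 2 GH arrays (-2.29 ± 0.38, adjusted p = 0.0118, 0.331 without the block). Without that array the change of Mmp3 was -2.94 (adjusted p = 0.000124), and without the whole experiment it was -2.91 (adjusted p = 0.00532).

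Col3a1, a fibrillar collagen chain, fell on all 3 of its probe sets, with changes of -2.08, -1.22 and -1.15 (adjusted p = 0.0118, 0.025 and 0.038). On the first it had 2862, 1941 and 4718 units in the controls and 548, 200 and 2758 with GH, so that the GH array of experiment 3 was above 1 of the controls. Without experiment 3 that change was -2.73 (adjusted p = 0.0104), and without the block the adjusted p-values of the 3 probe sets were 0.471, 0.622 and 0.619. Lox, which crosslinks collagen, fell by 1.50 ± 0.23 (adjusted p = 0.00734, 0.0769 without the block), with a second probe set at 0.19 ± 0.31. Col6a3 and Plod3 rose, by 0.61 ± 0.14 and 0.64 ± 0.14 (adjusted p = 0.0494 and 0.0371, 0.307 and 0.3 without the block). Col6a3 encodes a collagen VI chain and Plod3 a collagen lysyl hydroxylase. Neither passed without experiment 3 (0.254 and 0.243) or without its control array (0.166 and 0.0726). Of 33 collagen and collagen processing genes, 2 thus rose and 2 fell, with a median of -0.06. Without experiment 3, 0 rose and 3 fell, beside 53 and 58 of all 8251 genes.

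Of 45 measured non-collagen matrix proteins, 4 fell and 0 rose, with a median of -0.14, at -0.23, -0.35 and 0.06 in the 3 experiments. Besides Postn these were Thbs2 (thrombospondin 2), Dcn (decorin) and Lum (lumican). Thbs2 had 2862, 3098 and 912 units in the controls and 564, 593 and 444 with GH (-1.88 ± 0.33, adjusted p = 0.0155, 0.0591 without the block). Dcn fell by 1.11 ± 0.18 (adjusted p = 0.00838, 0.141 without the block). Lum had 575, 555 and 602 units in the controls and 160, 53.9 and 560 with GH, so that experiment 3 showed almost no difference (-1.56 ± 0.35, adjusted p = 0.0494, 0.67 without the block). Without that experiment the change of Lum was -2.29 (adjusted p = 0.017), and without experiment 2 it was -0.90 (adjusted p = 0.486).

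Ogn, osteoglycin, fell by 1.33 ± 0.25 on the dimmer of its probe sets (adjusted p = 0.0203, 0.531 without the block, 0.0752 without the control array of experiment 3), and the brighter gave -1.15 ± 0.43. Of 35 matrix proteases and inhibitors, Mmp3 alone fell and the median was -0.05. Plat, tissue plasminogen activator, had -0.98 ± 0.23 (adjusted p = 0.0633, and 0.0435 with a pseudocount of 100). Serpinf1, also known as PEDF, had -0.78 ± 0.21 (adjusted p = 0.124), and -1.06 without experiment 3 (adjusted p = 0.0383). Without experiment 3, 2 of the 35 thus fell, beside 58 of all 8251 genes.

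These matrix genes overlap with the preadipocyte and fibroblast markers, whose summed signal over the shorter marker list is given above. In the longer list of 26 measured genes, 4 fell (Postn, Dcn, Col3a1 and Lum), 0 rose and 23 lay below 0. Over all 8251 genes 0.703% fell and 3923 lay below 0. The median of the list was -0.55, and by experiment it was -0.69, -1.03 and 0.04. Without experiment 3 the number that fell was 8, beside 58 of all 8251 genes, and without its control array 6, beside 57. Sfrp2, a secreted Wnt modulator, had 1604, 1229 and 582 units in the controls and 646, 247 and 721 with GH. It was lower with GH in experiments 1 and 2 and higher in 3 (-1.06 ± 0.35, adjusted p = 0.237), and had -1.74 without experiment 3 (adjusted p = 0.0158). Pdgfrb, a receptor of fibroblasts and pericytes, had -0.81 ± 0.22 (adjusted p = 0.116) and -1.11 without that experiment (adjusted p = 0.0155). The part of these markers in the falls of matrix genes was not tested.

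**Figure D4:**
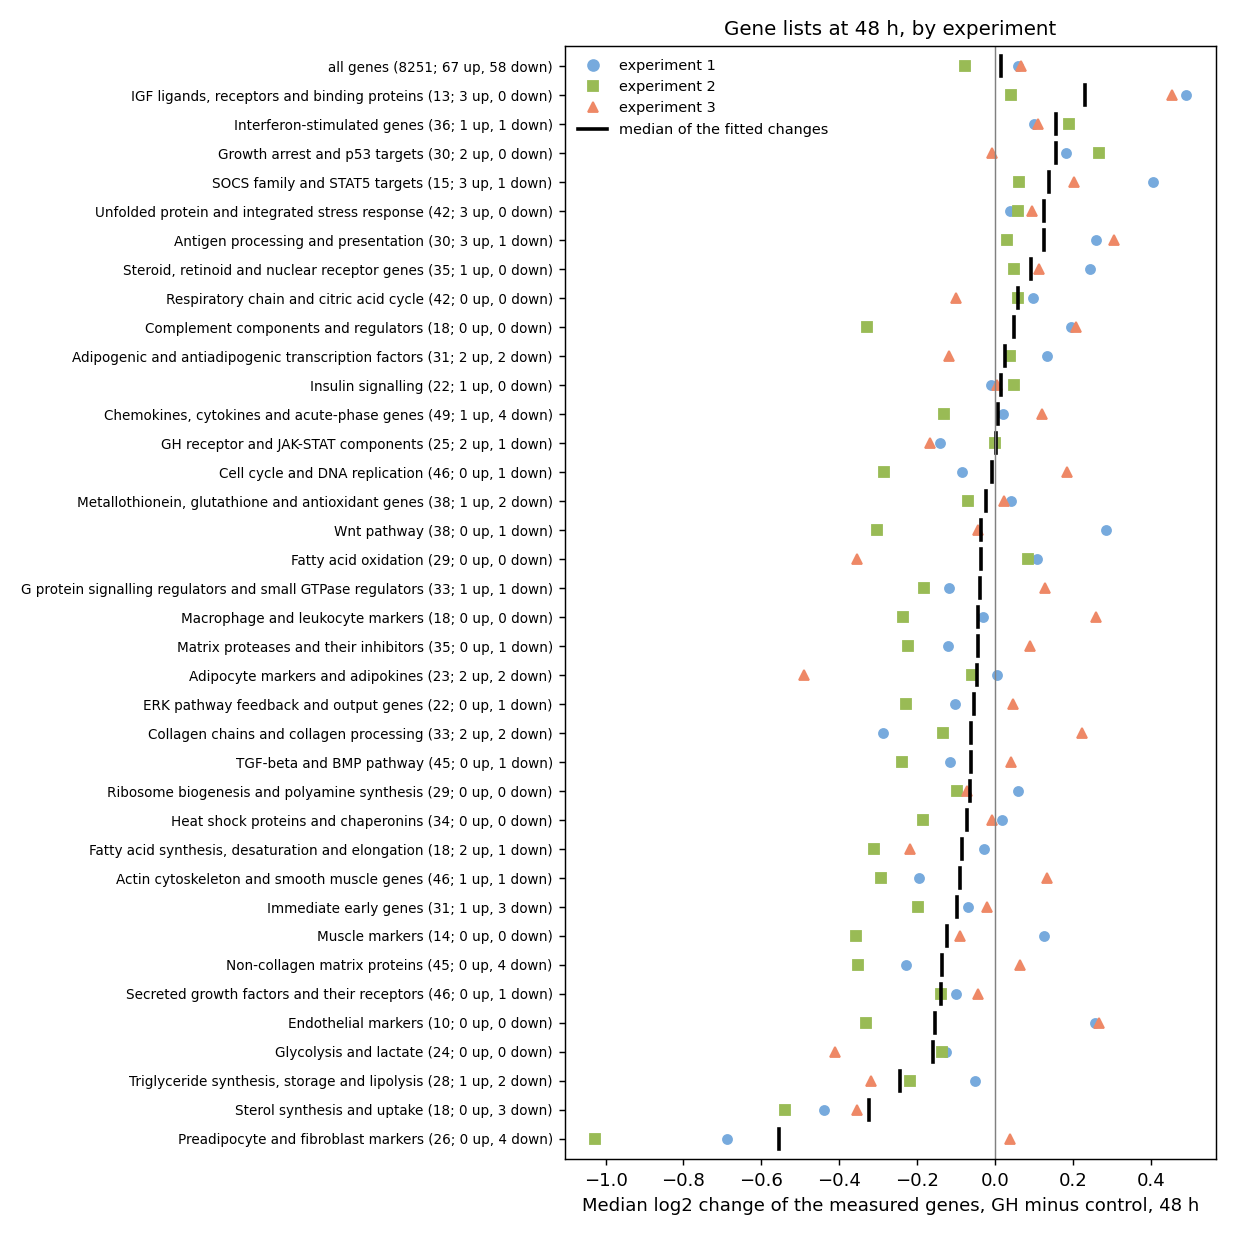
Median change in log2(signal + 25) between GH and control at 48 h (x axis) over the measured genes of each of the 37 lists and of all genes, with the number measured, risen and fallen in brackets. Blue circles, green squares and orange triangles are experiments 1, 2 and 3, and the black bar is the median of the fitted changes. Preadipocyte and fibroblast markers have the lowest bar, -0.55, with experiment 3 at 0.04, while sterol genes are below -0.3 in all 3.

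Of 49 measured chemokines, cytokines and acute-phase genes, 4 fell, 1 rose and the median was 0.01. Cxcl1 had 4935, 5258 and 1788 units in the controls and 1470, 1441 and 945 with GH on the first probe set (-1.49 ± 0.25, adjusted p = 0.0116, 0.0959 without the block), and its brighter probe set fell by 1.45 ± 0.26 (adjusted p = 0.0176, 0.0815 without the block). Cxcl5 had 7406, 7487 and 1650 units in the controls and 1597, 1874 and 1010.5 with GH. The control of experiment 3 was about as low as the GH arrays (-1.62 ± 0.36, adjusted p = 0.0457, 0.196 without the block), and without it the change of Cxcl5 was -2.22 (adjusted p = 0.000923). Ccl7, which attracts monocytes, fell by 1.42 ± 0.31 (adjusted p = 0.0458, 0.642 without the block). Ptx3, a pentraxin of the acute phase, fell by 1.31 ± 0.26 (adjusted p = 0.0294, 0.41 without the block), and had an adjusted p of 0.0535 without experiment 3 and 0.0508 without its control array. Without experiment 1 the change of Ptx3 was -0.79 (adjusted p = 0.42).

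Ccl6 rose instead, from 133, 88.7 and 211 units to 938, 935 and 444 (2.23 ± 0.35, adjusted p = 0.00814), with the smallest difference in experiment 3. Without that experiment the change of Ccl6 was 2.84. Of 18 complement genes, 0 passed and 1 did so unadjusted, with a median of 0.05. An unadjusted p under 0.05 was found for 11.3% of all genes, the share to set beside this count and those that follow. Of 18 macrophage and leukocyte genes, 0 passed and 4 did so unadjusted, among them Cd14 (0.80 ± 0.20, adjusted p = 0.0894) and Lyz2 (-0.77 ± 0.31, 0.38), with a median of -0.04. Emb, in that list, had -1.87 without experiment 3 (adjusted p = 0.0351) and -1.13 ± 0.42 with it. Of 10 endothelial and 14 muscle genes, 0 passed and 0 did so unadjusted, with medians of -0.15 and -0.12.

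Of 30 measured antigen processing genes, 3 that prepare peptides for MHC class I rose, 1 that presents lipids fell and the median was 0.13. Without experiment 3, 1 rose and 1 fell, beside 53 and 58 of all 8251 genes. Psmb9, an immunoproteasome subunit, had 49, 236 and 29.6 units in the controls and 300, 523 and 549 with GH. All GH arrays were above all controls, of which those of experiments 1 and 3 were under the background limit (2.20 ± 0.31, adjusted p = 0.00396, 0.0658 without the block). Tap1, a subunit of the peptide transporter, had 391, 501 and 290.1 units in the controls and 847, 1199 and 655 with GH (1.13 ± 0.17, adjusted p = 0.00669, 0.373 without the block). Psmb8, another immunoproteasome subunit, rose by 0.85 ± 0.16 (adjusted p = 0.0197, 0.69 without the block). Without experiment 3, Psmb9 had 1.60 (adjusted p = 0.0522) and Psmb8 0.69 (0.0882), and Psmb8 had 0.0626 without its control array.

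H2-D1, an MHC class I heavy chain, rose on 2 of its 3 probe sets, by 0.78 ± 0.17 and 0.63 ± 0.12 (adjusted p = 0.0382 and 0.0176). They are of the _f_at type, class I genes are nearly alike in sequence, and which of them was read is uncertain. Without the block the adjusted p-values of H2-D1 were 0.486 and 0.331. The larger change also did not pass without experiment 3 (0.57, adjusted p = 0.2) or without its control array (0.56, adjusted p = 0.0982). Cd1d1 presents lipid antigens to natural killer T cells. It had 728, 624 and 901 units in the controls and 160, 199 and 210 with GH, with a wide gap between the groups (-1.85 ± 0.17, adjusted p = 0.000265).

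Interferon-stimulated genes did not move as a block. Of 36 measured, 1 rose and 1 fell, with a median of 0.16. Ifi35 had 595, 581 and 428 units in the controls and 1072, 1061 and 841 with GH (0.87 ± 0.13, adjusted p = 0.00669, 0.153 without the block), with an adjusted p of 0.066 without experiment 3. Ifi27l2a had 1914, 2266 and 2852 units in the controls and 635, 975 and 1100.0 with GH (-1.37 ± 0.19, adjusted p = 0.00337). Neither overlapped. Gbp2 (-0.67 ± 0.15, adjusted p = 0.0513) and Igtp (0.94 ± 0.24, 0.097) had opposite signs and did not pass. With a mean signal of at least 100 both passed (adjusted p = 0.0191 and 0.0432).

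Gadd45g, a stress and growth arrest gene, had 119, 196 and 249 units in the controls and 596, 896 and 1237 with GH, with 2.11, 2.06 and 2.20 in the pairs (2.13 ± 0.21, adjusted p = 0.000371). Cdkn1a, which encodes the cyclin kinase inhibitor p21, had 498, 531 and 578 units in the controls and 1205, 1447 and 1148 with GH (1.20 ± 0.21, adjusted p = 0.0125), while a second probe set gave 0.43 ± 0.21. These were the 2 of 30 growth arrest and p53 target genes that rose, 0 fell, and the median was 0.16. Ccng1 had 0.87 ± 0.20 (adjusted p = 0.0616, and 0.0307 with a pseudocount of 100). Gas1 had -0.80 ± 0.22 (adjusted p = 0.122), and -1.10 without experiment 3 (adjusted p = 0.0195).

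Myc, a driver of growth, had 502, 495 and 474 units in the controls and 260, 230 and 219 with GH, both groups being tight (-0.98 ± 0.15, adjusted p = 0.00814, 0.115 without experiment 3). It was the 1 of 46 cell cycle and DNA replication genes that passed, and the median was -0.01. Of 29 genes of ribosome biogenesis and polyamine synthesis, 0 passed and 0 did so unadjusted, beside 11.3% of all genes, with a median of -0.07. Of 31 immediate early genes, 1 rose and 3 fell, with a median of -0.10. The one was Atf3, and the 3 were Myc, Klf4 and Rgs2. Rgs2, which dampens Gq signalling, fell by 0.78 ± 0.17 (adjusted p = 0.0395, 0.178 without the block), and had 0.0594 without experiment 3 and 0.088 without its control array.

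Dusp6 encodes a phosphatase that acts on ERK. It had 273, 334 and 356 units in the controls and 87.9, 116 and 136 with GH, without overlap (-1.33 ± 0.19, adjusted p = 0.00384). It was the 1 of 22 ERK feedback and output genes that passed, and the median was -0.05. Among 33 regulators of G proteins and small GTPases, Rgs16 rose and Rgs2 fell, with a median of -0.04. Rasd1, a small G protein, had -1.45 ± 0.34 (adjusted p = 0.0623, and 0.0263 with a mean signal of at least 100), without overlap between the groups.

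In the unfolded protein and integrated stress response list, 3 of 42 rose, 0 fell and 30 lay above 0, with a median of 0.13. Over all genes 0.812% rose and 52.5% lay above 0. Fkbp11, a peptidyl-prolyl isomerase of the endoplasmic reticulum, had 305, 264 and 393 units in the controls and 701, 682 and 769 with GH (1.12 ± 0.17, adjusted p = 0.00587, 0.153 without the block). Atf3, a stress-induced factor, rose by 1.80 ± 0.33 (adjusted p = 0.0194) on an _r_at probe set whose controls were under background, and by 1.28 ± 0.28 on an _f_at one (adjusted p = 0.0455, 0.393 without the block). The remaining Atf3 probe set lay near background. Xbp1 completes the 3. Dnajb9, a target of XBP1, had -0.61 ± 0.18 (adjusted p = 0.183). Of 34 heat shock genes and chaperonins, 0 passed and 2 did so unadjusted, beside 11.3% of all genes, with a median of -0.07.

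The remaining lists each held 1 to 3 genes that passed. In the glutathione and antioxidant list (38 measured, median -0.02), Gstz1, a maleylacetoacetate isomerase, had 6731, 8594 and 7053 units in the controls and 3156, 2689 and 3283 with GH (-1.28 ± 0.18, adjusted p = 0.00337). Gstm1 fell by 0.66 ± 0.12 on an _f_at probe set that its near-identical relatives may share (adjusted p = 0.0204, 0.333 without the block), and Gstt1 rose by 1.23 ± 0.20 (adjusted p = 0.00955, 0.411 without the block). Without experiment 3 neither passed (0.0939 and 0.0789). Fkbp5, a glucocorticoid-induced co-chaperone of steroid receptors, rose by 1.35 ± 0.23 (adjusted p = 0.012), as the 1 of 35 steroid, retinoid and nuclear receptor genes that passed (median 0.09).

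Fst, follistatin, fell by 1.50 ± 0.29 (adjusted p = 0.0218, 0.0892 without the block, 0.0644 without the control array of experiment 3) and was the 1 of 45 TGF-beta and BMP genes that passed (median -0.06). Ccn5, a matricellular protein in the Wnt list, fell by 1.44 ± 0.31 (adjusted p = 0.0455, 0.145 without the block, 0.053 without experiment 3), as the 1 of 38 (median -0.04). Hgf, hepatocyte growth factor, fell by 0.86 ± 0.16 (adjusted p = 0.0194, 0.761 without the block, 0.0525 without experiment 3), as the 1 of 46 secreted growth factors and receptors (median -0.14). All 6 Hgf signals were under the background limit, from 35.4 to 71.8 in the controls and 5.5 to 35.3 with GH, and with a pseudocount of 100 the change was -0.37 (adjusted p = 0.0661). Of 46 actin cytoskeleton and smooth muscle genes, Pdlim1, an actin-associated adaptor, rose by 1.53 ± 0.21 (adjusted p = 0.00349) and Anxa1 fell (median -0.09). Anxa1, an anti-inflammatory annexin, had -1.11 ± 0.24 on 1 probe set (adjusted p = 0.0457, 0.187 without the block, 0.121 without experiment 3) and an adjusted p of 0.00838 on its brightest, while the remaining one did not pass (-1.06 ± 0.30).

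The other genes among the 20 largest rises belonged to none of the lists. Mpp1, a membrane-associated scaffold, had 2485, 2381 and 2978 units in the controls and 9081, 8634 and 4401 with GH (1.42 ± 0.24, adjusted p = 0.0118), with the smallest difference in experiment 3. Apcdd1, a membrane protein that inhibits Wnt signalling, had 98.4, 182 and 240.3 units in the controls and 452, 583 and 860 with GH (1.75 ± 0.28, adjusted p = 0.01, 0.164 without the block, 0.105 without experiment 3). Their arrays did not overlap. St3gal6, a sialyltransferase, rose by 1.85 ± 0.32 (adjusted p = 0.013, 0.0771 without the block) and Rexo5, a putative RNA exonuclease, by 1.78 ± 0.29 (adjusted p = 0.0103, 0.0661 without the block), both from controls under or at the background limit. The GH array of experiment 3 was under that limit too for St3gal6, at 96.8 units.

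Acp5, Fmo1 and Sox17 did not pass without experiment 3 or without its control array. Acp5, tartrate-resistant acid phosphatase, had 84.3, 131 and 35.2 units in the controls and 578, 634 and 113 with GH (1.91 ± 0.39, adjusted p = 0.0316, 0.332 without the block). The GH array of experiment 3 lay below the control of experiment 2. Fmo1, a flavin monooxygenase, rose by 1.81 ± 0.37 (adjusted p = 0.0351, 0.295 without the block) and Sox17, a transcription factor, by 1.63 ± 0.36 (adjusted p = 0.0494, 0.0771 without the block), with a second Sox17 probe set at 0.02 ± 0.15 near background. The called Sox17 probe set was dim too, with 14.5, 27.3 and 19.4 units in the controls and 185, 76.9 and 102 with GH. Only its GH array of experiment 1 was above the background limit. Without experiment 3 the adjusted p was 0.053 for Acp5, 0.298 for Fmo1 and 0.228 for Sox17, and without its control array 0.0787, 0.111 and 0.133.

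Of the 20 largest falls, Apoc2 and Polr2i were in none of the lists. Apoc2, the activator of lipoprotein lipase, had 912, 1124 and 319 units in the controls and 264, 243 and 260 with GH, with nearly level GH arrays and a low control in experiment 3 (-1.36 ± 0.27, adjusted p = 0.0318, 0.331 without the block). Polr2i, an RNA polymerase II subunit, fell by 1.41 ± 0.32 (adjusted p = 0.0494, 0.0897 without the block), from 126 to 177 units in the controls to 28.2 to 50.2 with GH, all GH arrays being under background. It did not pass without experiment 3 (0.249) or its control array (0.154).

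To see what set 48 h apart, its GH effect was compared with those at 30 min and 4 h in the same model, by a test of the difference itself. Between 48 h and 30 min, 22 probe sets passed (0.177%), 11 in each direction, of which 8 did so without the block, 11 without experiment 3 and 0 without experiment 1 or 2. Between 48 h and 4 h, 0 passed by limma with the block (0.0%), and 1024 had an unadjusted p under 0.05. Each time has its own controls, so no array is shared between the effects, although arrays of an experiment share its number.

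The differences from 30 min fell into several patterns. Igf1 had an effect of 0.19 at 30 min, 1.77 at 4 h and 3.65 at 48 h, and the difference of 3.46 ± 0.29 between 48 h and 30 min passed with the block (adjusted p = 0.000255). Igfbp3 and Igfals followed the same order, with -0.10, 1.11 and 2.49 and with -0.15, 1.10 and 2.09. Cish and Adipor2 were already at 2.50 and 1.25 at 4 h and had 2.04 and 1.39 at 48 h. For Agt, Ghr, Tcn2 and Cd1d1 the effect at 4 h was small, at 0.38, 0.10, 0.00 and -0.36, beside 1.97, 1.40, 0.91 and -1.85 at 48 h. The difference between 48 h and 4 h did not pass for any of them.

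Myc, Klf4, Dusp6 and Ccl7 had positive values at 30 min (0.60, 0.51, 0.85 and 1.25) and fell at 48 h, and their differences between the times passed, at -1.59, -1.56, -2.18 and -2.67. Myc was at -1.11 at 4 h, while the other 3 were at -0.12 to -0.29. Socs3 and Ier3, an early response gene, had effects of 3.98 and 1.67 at 30 min and of 0.07 and 0.05 at 48 h. Bcl6 had -0.30, -1.87 and -1.95 over the 3 times, and its difference between 48 h and 30 min did not pass.

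**Figure D5:**
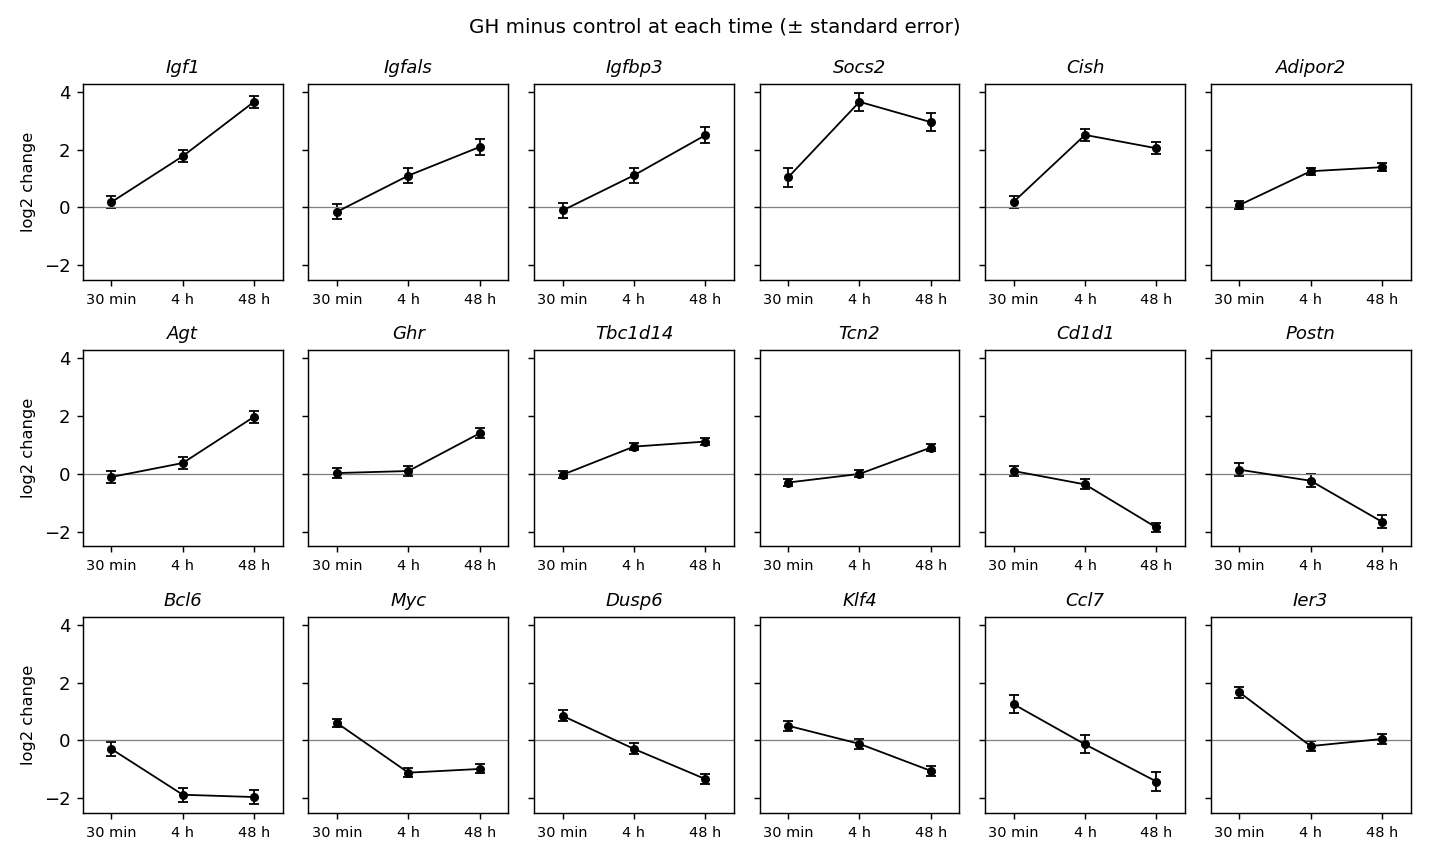
GH effect as change in log2(signal + 25) between GH and control at 30 min, 4 h and 48 h (y axis) for 18 genes, each point from 3 arrays a group with its standard error from the model with the experiment as block. Igf1, Igfbp3 and Igfals are highest at 48 h, Socs2 and Cish at 4 h, and Ier3 at 30 min.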

How the data were processed

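The deposited values are signal intensities of Affymetrix MG_U74Av2 arrays, on a linear scale and already scaled by the authors: the mean without the outer 2% of probe sets at each end was 500.3 on every array. The summary method and software are not given in the sources used here, and because of the scaling a change is relative to most other probe sets. The 48 h arrays had medians of 151 to 183 signal units and mean correlations of 0.95 to 0.965 with each other. With arrays, their number, 3 per group, limits the precision. Scan dates or other batches are not given in the files.

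Samples were grouped by title. For 3 samples (GH 30 min of experiment 1, control 48 h of experiment 3 and GH 4 h of experiment 3) the description names another group. Of 12422 probe sets, 10833 have 1 gene symbol in GEO's platform annotation, and the 396 with several and 1193 without are called unnamed. By gene identifier, 10817 matched the reference table of GRCm38.p6 and 0 symbols changed.

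Here log2(signal + 25) was fitted in R 4.3.3 with limma 3.58.1 over all 18 arrays (6 groups, experiment as block, 10 residual degrees of freedom). The 25 is close to the 20th percentile of signals above 0, which was 24.6. Tests were two-sided. The pairing comes from the experiment numbers in the titles. Deviations of GH and control arrays of 1 experiment from their group means correlated at 0.166, 0.151 and 0.423 at 48 h. However, the control of experiment 1 correlated at 0.213 with the GH array of experiment 2. That of experiment 2 correlated at 0.124 with the GH array of experiment 1. At 48 h these correlations thus set only the pair of experiment 3 apart. Over all 45 combinations of arrays that share an experiment but not a group, they ranged from 0.055 to 0.472. The fitting was tested on simulated data.

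The genes named are the 20 largest rises and falls past the threshold, list members past it, up to 4 members per list with the lowest p, a fixed set of GH pathway and adipocyte genes, up to 8 genes per direction whose effect differed between times, and their other probe sets. Members and the 37 lists were chosen with earlier results of these data known. The probe set with the highest mean signal stands for a gene in list counts. Alternatives were the fit without the block, the 48 h arrays alone, pseudocounts of 5 and 100, quantile normalization, a mean signal of at least 100, a mean-variance trend, and leaving out each experiment or the arrays with conflicting labels.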

Additional observations from a re-analysis of the deposited data

Results flagged for a closer look

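The GH effect at 48 h differed from that at 30 min, by limma's test of the difference with the experiment as block, for 19 probe sets with a gene symbol (adjusted p under 0.05). Without the block 8 of all 22 passed, namely Adipor2, Cd1d1, Myc, Dusp6, Klf4, both probe sets of Socs3 and 1 unnamed, and 0 passed without experiment 1 or without experiment 2. Without experiment 3, 11 of the 22 passed, and without its control array 20 did. Those with a larger or more positive effect at 48 h were Igf1 (difference 3.46 ± 0.29), Igfbp3 (2.60 ± 0.38), Igfals (2.23 ± 0.38), Agt (2.08 ± 0.29), Cish (1.85 ± 0.29), Ghr (1.37 ± 0.23), Adipor2 (1.31 ± 0.18), Tcn2 (1.21 ± 0.17) and Tbc1d14 (1.15 ± 0.17). Tcn2 encodes a vitamin B12 carrier, and Tbc1d14 a regulator of vesicle traffic.

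Those with a lower effect at 48 h were Socs3 (-3.92 ± 0.59 and -2.75 ± 0.30 on its probe sets), Ccl7 (-2.67 ± 0.44), Dusp6 (-2.18 ± 0.27), Fzd4 (-2.11 ± 0.36, on an _r_at probe set near background), Cd1d1 (-1.95 ± 0.24), Postn (-1.80 ± 0.32), Ier3 (-1.61 ± 0.26), Myc (-1.58 ± 0.22) and Klf4 (-1.56 ± 0.24). For Socs3 and Ier3 the difference comes from effects of 3.98 and 3.10 and of 1.67 at 30 min, while at 48 h they had 0.07 and 0.34 and 0.05. For Cd1d1 and Postn the effect at 30 min was 0.10 and 0.15. The brighter Fzd4 probe set did not pass the test of the difference. Its GH effect at 48 h was -0.58 ± 0.23 (adjusted p = 0.362 by limma).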

How the results depend on the processing

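Against 158 probe sets past the threshold at 48 h, the fit with no replicate block called 42, a mean signal of at least 100 gave 240 and a mean-variance trend 248. The 48 h arrays alone gave 1 with the replicate block (957 at an unadjusted p under 0.05) and 0 without it (637). Leaving out 1 experiment or the control 48 h array of experiment 3 gave 1 to 147. The other alternatives gave 109 to 231. The difference between 48 h and 4 h, 0 probe sets, became 1 with no replicate block, 12 with a pseudocount of 100, 14 with the signal minimum, 18 with the trend, 4 without the control 48 h array of experiment 3, 57 without the arrays with conflicting labels and 0 to 21 without 1 experiment. The difference between 48 h and 30 min, 22, became 8 with no replicate block, 12 and 51 with pseudocounts of 5 and 100, 45 with the signal minimum, 71 with the trend, 45 without that control array and 0 to 25 without 1 experiment. The causes were not tested.

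Of the 76 named genes past the threshold, 26 passed with no replicate block, 58 with a pseudocount of 5, 75 with 100, 74 with quantile normalization, 49 without experiment 3 and 54 without the arrays with conflicting labels, and 0 reversed. Reversals occurred for genes that did not pass. Leaving out 1 experiment or the control 48 h array of experiment 3 gave changes of -0.052 to 0.169 for Adipoq, -0.117 to 0.249 for Cebpa, -0.108 to 0.768 for Lep, -0.086 to 0.244 for Pparg, -0.313 to 0.452 for Slc2a4 and -0.368 to 0.498 for Socs3. Slc2a4 turned to 0.002 with a pseudocount of 100 and to 0.397 without the conflicting arrays, where Socs3 was at -0.095. Signals near background limit the sizes of dim genes. With a pseudocount of 100 the changes were 2.42 for Igf1, 1.55 for Igfbp3, 1.05 for Atf3, 1.22 for St3gal6, 0.85 for Sox17, -1.16 for Pck1, -0.94 for Ccn5, -0.88 for Ogn, -0.82 for Polr2i and -0.37 for Hgf, over 1.5 times smaller than those reported, and with a pseudocount of 5 it was -1.41 for Hgf.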

Other observations

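Several genes that passed at 48 h belong to groups outside the lists. They were noticed after the values were seen, so their counts are descriptions with no test of the group. Of 42 measured lysosomal enzymes and membrane proteins, 6 rose, 0 fell and 33 lay above 0, with a median of 0.24 (0.16, 0.32 and 0.38 in the 3 experiments) beside 0.015 over all genes. Over all genes 0.812% rose and 52.5% lay above 0. The 6 were Dpp7 (0.85, adjusted p = 0.247 without the block), Npc2 (0.67, 0.0532), Gm2a (1.04, 0.0303), Acp5 (1.91, 0.332), Scarb2 (0.76, 0.622) and Man2b1 (0.70, 0.259), so that Gm2a alone passed without it. Gm2a helps degrade gangliosides, Npc2 carries cholesterol out of lysosomes, and Man2b1 is a mannosidase. Without experiment 3, or without its control array, 1 of the 42 rose, beside 53 and 57 of all 8251 genes.

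Of 5 measured caveolar coat genes, 2 fell, Cavin2 by 1.11 (adjusted p = 0.0532 without the block) and Cavin3 by 0.85 (0.26), and 0 lay above 0, with a median of -0.55. Of the 5, 0 passed without experiment 3 or without its control array. Without the 3 arrays with conflicting labels 2 fell, beside 53 of all 8251 genes. Of 14 genes of branched-chain amino acid and ketone body breakdown, Oxct1, the ketone-using enzyme of tissues outside the liver, rose by 0.91 (adjusted p = 0.172 without the block), and Bckdhb, a subunit of the branched-chain ketoacid dehydrogenase, fell by 0.86 (0.0547), with a median of -0.33. Bckdhb did not pass without experiment 3, without its control array or without the arrays with conflicting labels. Among single genes, Tbc1d14 (1.12, adjusted p = 0.000467), Nabp1 (1.38, 0.00112) and Hagh (1.18, 0.00651) had low p-values among those outside the lists. Hagh is glyoxalase II and Nabp1 a single-strand DNA binding protein.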
